A study of Mus musculus with 6 samples.

Results

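The genes described here are 8 leukocyte adhesion molecules, selectins and atypical chemokine receptors, namely Icam1, Icam2, Vcam1, Sele, Selp, Selplg, Ackr1 and Ackr3, chosen by symbol from the 31130 genes counted in each tumor. All 8 were present in the count tables, and 5 of them had enough counts for the test between the groups. The tumors came from wild-type female C57BL/6 mice of 6 to 8 weeks, and all of them carried LLC cells (Lewis lung carcinoma, a cancer line of C57BL/6 origin that here expressed a green fluorescent protein) injected into the left lung on day 14. The lung cancer with interstitial pneumonia group (IP + LC, n = 3) had been given 2.0 mg/kg bleomycin, which causes lung injury followed by fibrosis, by oropharyngeal aspiration on day 0, and the lung cancer alone group (LC, n = 3) had been given saline. Tumor tissue was taken on day 21, and unique molecular identifiers (UMIs), tags that mark single mRNA molecules, were counted at the 3′ end of the transcripts.

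White blood cells leave the blood in steps. E-selectin (Sele) and P-selectin (Selp) on activated endothelium catch passing cells through carbohydrate ligands such as PSGL-1, which is encoded by Selplg and carried by the leukocytes. ICAM-1, ICAM-2 and VCAM-1 then bind leukocyte integrins and hold the cells, and they differ in that ICAM-2 is constitutive on endothelium whereas ICAM-1, VCAM-1 and E-selectin are induced by inflammatory cytokines. Ackr1 is a decoy receptor for inflammatory chemokines on venules and red cells, and Ackr3 removes CXCL12.

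Tumor tissue is a mixture, and fewer cells of a type and less RNA per cell cannot be told apart in these data. The libraries held 592733 to 1631066 UMIs, with LC replicate 1 the smallest. LC replicate 1 also stood apart in its profile, with a correlation across genes of 0.840 and 0.799 to the other LC tumors, whose own correlation was 0.962. Values without LC replicate 1 are therefore given beside the results they change. The labels call the cells lung cancer cells, but mRNAs of normal lung were abundant, with Sftpc, the surfactant protein C gene, at 27466 counts per 1000000 UMIs (CPM, scaled by the TMM method) in the LC and 6347 CPM in the IP + LC group. Over all genes tested, 36.4% passed an adjusted p-value of 0.1 in edgeR's quasi-likelihood test, the limit that was used throughout, with 16.8% higher and 19.6% lower in the IP + LC group. Of these calls 46.1% were in the higher direction, against 58.3% when only the library size was used for scaling. Without LC replicate 1 the share of genes called was 57.0% (28.3% higher and 28.7% lower), so that more calls among the members and lists without this tumor are read against that share. Without LC replicates 2 and 3 in turn it was 22.4% (8.81% higher, 13.6% lower) and 26.4% (11.2% higher, 15.2% lower). Without IP + LC replicates 1, 2 and 3 in turn it was 22.6% (9.25% higher, 13.4% lower), 19.2% (7.61% higher, 11.6% lower) and 26.7% (11.1% higher, 15.5% lower).

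The members moved in different directions. Vcam1 was higher in the IP + LC group, Icam2 was lower, and the remaining 3 tested members did not pass the test. Selp, Ackr1 and Sele were too low for the test. This made 2 of 5 tested members called, 1 in each direction, beside 36.4% of all genes tested (16.8% higher, 19.6% lower). The count is thus no result about the members. Their median on the log2 scale was 0.10 against 0.018 over all genes tested. Without LC replicate 1, 3 of 6 were called, beside 57.0% of all genes tested. Selp enters the test there only through its counts in IP + LC replicates 1 and 2, so its call is no result.

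Cytokines induce Icam1, Sele and Selp in the mouse, and their promoters are printed because these mRNAs were low while several mRNAs of the inducing pathways were higher in the same tumors. The windows run from 250 bases before to 50 bases after the transcription start that RefSeq annotates on GRCm38.p6, on the plus strand, at chr9:21015690-21015989 for Icam1, chr1:164047984-164048283 for Sele and chr1:164115014-164115313 for Selp. Of the 8 members, 5 had a window (Icam1, Sele, Selp, Ackr1 and Ackr3). Capitals mark matches on either strand to a GAS element (TTCNNNGAA, an interferon-gamma activated site), a TATA box (TATAAA) or an AP-1 site (TGANTCA).
Icam1: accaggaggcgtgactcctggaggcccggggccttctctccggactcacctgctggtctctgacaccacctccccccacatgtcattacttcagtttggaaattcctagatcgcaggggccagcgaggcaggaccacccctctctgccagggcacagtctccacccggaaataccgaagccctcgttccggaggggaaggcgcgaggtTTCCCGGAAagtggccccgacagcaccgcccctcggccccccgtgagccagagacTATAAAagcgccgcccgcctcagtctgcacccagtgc
Sele: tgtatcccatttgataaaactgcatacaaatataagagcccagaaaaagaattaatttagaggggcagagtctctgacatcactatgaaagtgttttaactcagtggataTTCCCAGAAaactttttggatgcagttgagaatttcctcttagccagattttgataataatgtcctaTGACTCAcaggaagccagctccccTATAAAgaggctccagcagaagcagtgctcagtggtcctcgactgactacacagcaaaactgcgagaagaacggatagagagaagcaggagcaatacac
Selp: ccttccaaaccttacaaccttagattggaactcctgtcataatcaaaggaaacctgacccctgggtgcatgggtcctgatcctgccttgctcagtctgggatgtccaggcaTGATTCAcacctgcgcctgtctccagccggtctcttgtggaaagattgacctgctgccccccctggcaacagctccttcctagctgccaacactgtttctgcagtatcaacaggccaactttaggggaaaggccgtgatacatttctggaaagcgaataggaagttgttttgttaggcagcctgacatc
In the Icam1 window, TTCCCGGAA began 42 bases before the start, and the TATA box began at base 14 of the RefSeq transcript. The GENCODE start of Icam1 lies 45 bases further downstream, so that the TATA box is upstream of it. In the Sele window, TTCCCAGAA began 140 bases, the AP-1 site 73 bases and the TATA box 49 bases before the start. The Selp window held an AP-1 match 139 bases before the start. Among 32851 windows of the same length, 8.30% held the GAS element, 13.6% the TATA box and 7.81% the AP-1 site. The NF-kappaB consensus (4.51% of windows) and the interferon regulatory factor core (3.44%) were not matched in the 5 windows, which says only that these letters are not in these windows. The ETS core CAGGAA (30.6% of windows) was matched in those of Sele, Ackr1 and Ackr3 and the GATA site AGATAA (11.2%) in that of Ackr1, and no match overlapped another.

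VCAM-1 is the ligand of the integrin α4β1 (VLA-4) on lymphocytes and monocytes, and besides endothelium it is also found on macrophages and stromal cells. Vcam1 (ENSMUSG00000027962), on the minus strand of chromosome 3 of GRCm38 from 116109949 to 116129688, had 60, 104 and 110 UMIs in the LC tumors and 222, 290 and 221 UMIs in the IP + LC tumors. After scaling these were 103, 81.5 and 93.2 CPM in the LC tumors and 161, 169 and 160.5 CPM in the IP + LC tumors. All IP + LC tumors lay above all LC tumors, a pattern found in this direction for 21.6% and in either direction for 43.1% of all genes tested. The means were 92.7 ± 10.9 and 164 ± 4.94 CPM (SD, n = 3), a log2 difference of 0.83 (standard error 0.19, 95% interval 0.40 to 1.26, adjusted p = 0.0134 from edgeR). Without LC replicate 1 it was 0.92 (adjusted p = 0.000125 from edgeR). Vcam1 also passed the limit in each of the other 5 fits that left out a single tumor. An antisense gene, Gm43109, covers 0.688% of its exonic bases and had 0 UMIs.

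ICAM-2 is a ligand of the integrin LFA-1 and is also found on platelets and lymphocytes. Icam2 (ENSMUSG00000001029), on the minus strand of chromosome 11 from 106377656 to 106388075, had 136, 378 and 280 UMIs in the LC tumors and 87, 79 and 100 UMIs in the IP + LC tumors. The scaled levels were 234, 296 and 237 CPM against 63.1, 46.1 and 72.6 CPM. No IP + LC tumor reached the lowest LC tumor, as was the case in this direction for 21.5% of all genes tested. Icam2 fell from 256 ± 34.9 to 60.6 ± 13.4 CPM (SD, n = 3), which is 4.22-fold lower, with a log2 fold change of -2.08 (standard error 0.24, 95% interval -2.62 to -1.55, adjusted p = 0.00101 from edgeR). Leaving out LC replicate 1 gave -2.14 (adjusted p = 3.31e-07 from edgeR).

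The ratio of both genes within a library does not depend on the scaling. There were 44.1, 27.5 and 39.3 Vcam1 UMIs per 100 Icam2 UMIs in the LC tumors and 255, 367 and 221 in the IP + LC tumors. In the LC tumors Icam2 was thus the more often counted mRNA of the pair and in the IP + LC tumors Vcam1 was. The mean ratio was 7.60 times that of the LC tumors (8.42 times without LC replicate 1). Since the pair was chosen after both genes were seen to differ, in opposite directions, this is a description with no test.

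ICAM-1 binds LFA-1 and Mac-1 and is the classical cytokine-induced member of its family. Icam1 (ENSMUSG00000037405), on the plus strand of chromosome 9 from 21015985 to 21028817, had only 6, 12 and 8 UMIs in the LC tumors and 15, 13 and 13 UMIs in the IP + LC tumors. At 10.3, 9.40 and 6.78 CPM in the LC and 10.9, 7.59 and 9.44 CPM in the IP + LC tumors, the groups overlapped. The log2 fold change was 0.10 (95% interval -0.68 to 0.88, adjusted p = 0.863 from edgeR; 0.19 without LC replicate 1), and the interval shows that a change of moderate size in either direction was not detectable at this depth. An antisense gene, Gm47079, overlaps 11.7% of the exonic bases of Icam1 and had 1 UMI in all tumors together. Parts of at least 81 nucleotides of the annotated Icam1 transcripts also matched 13 other genes at 95% identity or more, so its UMIs are less certain.

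The selectins were near the detection level, which is 3 UMIs per library or 1.75 to 5.17 CPM. Selp (ENSMUSG00000026580), whose product is stored in endothelial cells and platelets, lies on the plus strand of chromosome 1 from 164115264 to 164150026. It had 4, 4 and 6 UMIs in the LC tumors and 17, 15 and 7 UMIs in the IP + LC tumors. This corresponded to 6.89, 3.13 and 5.08 CPM against 12.3, 8.76 and 5.08 CPM. IP + LC replicates 1 and 2 lay above all LC tumors, while IP + LC replicate 3 lay within their range (two-sided exact permutation p = 0.3). Selp entered the test only when some tumors were left out or no filter was used. In the fits that left out a tumor, it passed the filter only through IP + LC replicates 1 and 2, where it was highest. These values are therefore a description. Its log2 fold change was 1.09 without LC replicate 1 (adjusted p = 0.0994 from edgeR), just past the limit. Leaving out LC replicate 2, LC replicate 3 or IP + LC replicate 3 gave 0.59, 0.95 and 1.16, none past the limit (adjusted p = 0.521, 0.317 and 0.152 from edgeR). With all tumors and no filter on low counts, it was 0.99 (adjusted p = 0.323 from edgeR). The antisense genes Gm16548 and Gm16587 cover 14.1% of its exonic bases and had 1 UMI each. Sele (ENSMUSG00000026582), from 164048234 to 164057677 on the plus strand of the same chromosome, had 0, 1 and 1 UMIs in the LC and 3, 2 and 0 UMIs in the IP + LC tumors. Sele did not exceed the detection level in any tumor, and no fold is given.

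Selplg (ENSMUSG00000048163), on the minus strand of chromosome 5 from 113818536 to 113832644, encodes the main selectin ligand of leukocytes. It had 54, 92 and 96 UMIs in the LC and 103, 171 and 105 UMIs in the IP + LC tumors. At 93.0, 72.1 and 81.4 CPM against 74.7, 99.8 and 76.2 CPM, the groups overlapped. The means were 82.1 ± 10.5 and 83.6 ± 14.1 CPM (SD, n = 3), with a log2 fold change of 0.038 (95% interval -0.44 to 0.52, adjusted p = 0.919 from edgeR), and 0.14 without LC replicate 1.

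Ackr3 (ENSMUSG00000044337), on the plus strand of chromosome 1 from 90203980 to 90216751, had 23, 49 and 37 UMIs in the LC tumors and 60, 65 and 61 UMIs in the IP + LC tumors. The scaled levels were 39.6, 38.4 and 31.4 CPM against 43.5, 37.9 and 44.3 CPM, and IP + LC replicate 2 lay among the LC tumors. Its log2 fold change of 0.21 did not pass the test (95% interval -0.25 to 0.67, adjusted p = 0.479 from edgeR), and it was 0.26 without LC replicate 1. Ackr1 (ENSMUSG00000037872), on the minus strand from 173331886 to 173333750, had 1, 3 and 2 UMIs in the LC and 2, 9 and 4 UMIs in the IP + LC tumors. Ackr1 exceeded 3 UMIs in 2 tumors, both of the IP + LC group (two-sided exact permutation p = 0.4 on CPM). The gene Cadm3 on the same strand covers 25.7% of its exonic bases, with 12 UMIs of its own in all tumors, so that the few UMIs of Ackr1 are uncertain.

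**Figure D1:**
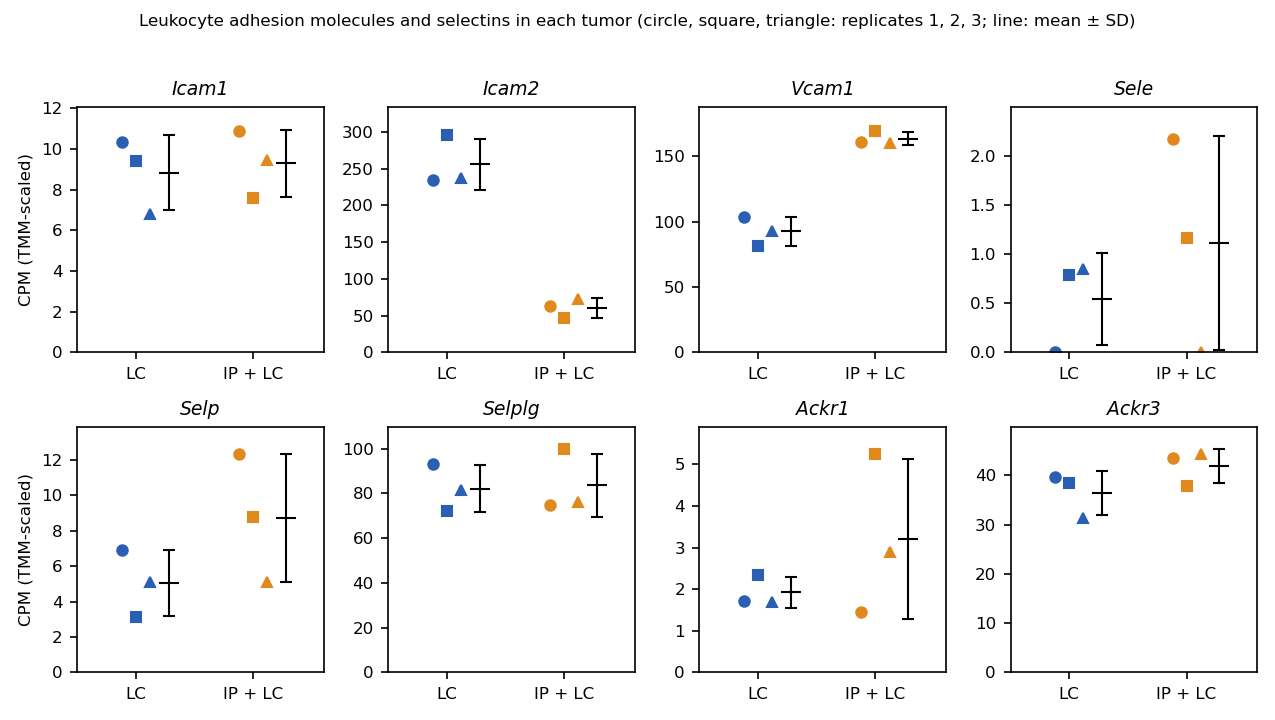
Level of each of the 8 genes in CPM after TMM scaling (vertical axes, each from 0) in the 3 LC tumors (blue) and the 3 IP + LC tumors (orange), with the mean and SD beside the points. The groups are apart for Icam2 (46.1 to 72.6 CPM against 234 to 296 CPM) and Vcam1 (160.5 to 169 CPM against 81.5 to 103 CPM) and overlap for the other 6 genes.

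Since most of these genes are carried by endothelium, the markers of that cell type were read beside them. All 17 endothelial genes of a fixed list were tested and all 17 were lower in IP + LC tumors, their median log2 fold change being -1.74 against 0.018 over all genes. Without IP + LC replicate 2, Flt1 lost the call, and the other 16 were called in all 6 fits that left out a tumor. The most abundant were Calcrl and Ramp2, which together form a receptor for adrenomedullin, and Tmem100. Calcrl fell from 690.2 to 126 CPM, Tmem100 from 570.5 to 61.8 CPM and Ramp2 from 520.4 to 78.8 CPM. The smallest p-values were those of Egfl7 (-1.82) and Tek (-2.60), the angiopoietin receptor TIE2, on the log2 scale (adjusted p = 0.000859 for both, from edgeR). The summed level of the list was 3179 to 5168 CPM in the LC tumors and 899 to 1146 CPM in the IP + LC tumors, and LC replicate 1 was the lowest of its group. Pecam1 (CD31) had a log2 fold change of -1.66 and Cdh5 (VE-cadherin) of -1.43 (adjusted p = 0.00134 and 0.0133 from edgeR). Of the 17 genes, Eng at -0.96 changed least and Tmem100 at -3.21 changed most. The value of Icam2, -2.08, lay within the range of this list.

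**Figure D2:**
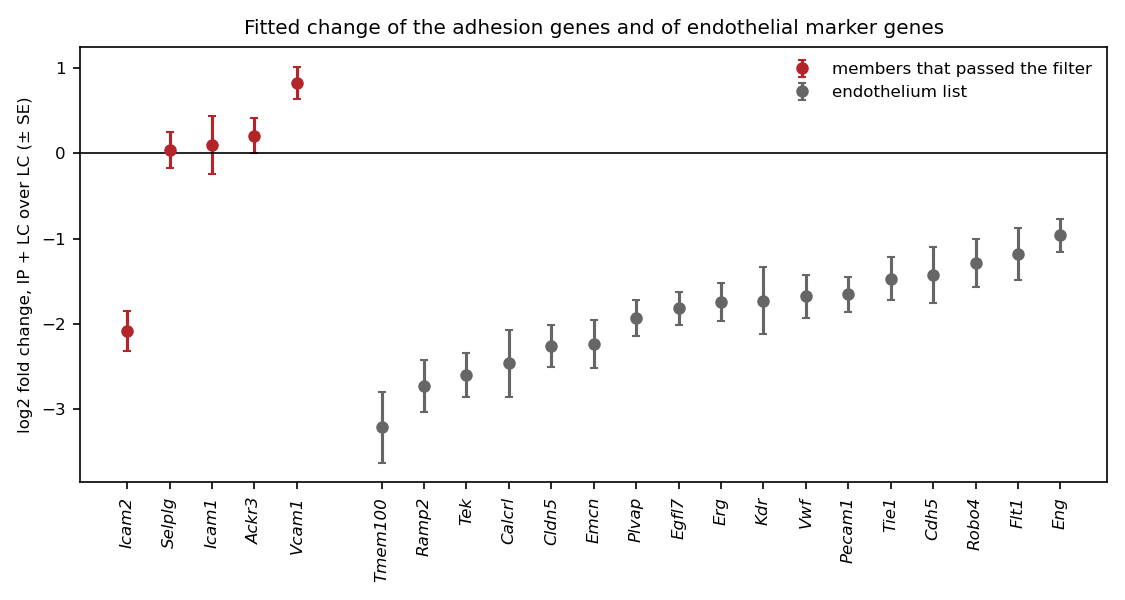
Fitted log2 fold change of IP + LC over LC with its standard error (vertical axis) for the 5 tested members (red) and the 17 genes of the endothelium list (grey). Icam2 at -2.08 lies among the endothelial genes, which run from -3.21 to -0.96, while Selplg, Icam1, Ackr3 and Vcam1 lie between 0.038 and 0.83.

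Each member was also counted per 100 UMIs of the 17 endothelial genes in the same tumor. On this scale 88.7% of all genes tested were higher in every IP + LC tumor than in every LC tumor and 0.925% were lower (89.6% in either direction), so that a higher ratio without overlap is no result about a member. Icam2 stood at 7.37, 5.73 and 5.17 in the LC tumors and at 5.72, 5.13 and 6.34 in the IP + LC tumors, and the groups overlapped (two-sided exact permutation p = 0.6). Against Pecam1 and Cdh5 alone, however, Icam2 had 60.7, 45.0 and 40.9 UMIs per 100 in the LC tumors and 33.6, 27.5 and 36.4 in the IP + LC tumors, a fold of 0.665 without overlap (0.757 without LC replicate 1; two-sided exact permutation p = 0.1). On that scale 2.54% of all genes tested were lower without overlap and 78.1% were higher (80.6% in either direction). The order of Icam2 between the groups thus depends on the genes it is set against.
Vcam1 had 3.25, 1.58 and 2.03 UMIs per 100 endothelial UMIs in the LC tumors and 14.6, 18.8 and 14.01 in the IP + LC tumors. The means differed 6.92-fold, and 8.77-fold without LC replicate 1. Selplg, Ackr3, Icam1 and Selp were also above all LC tumors in every IP + LC tumor on this scale, with folds from 4.03 for Selplg to 6.54 for Selp, which was 9.87 without LC replicate 1 (two-sided exact permutation p = 0.1 for each, the smallest possible), as for most genes. Ackr1 was higher without overlap too, but rests on at most 3 UMIs in each LC tumor, and Sele overlapped. The denominator was lower in every IP + LC tumor, which raises the ratio of any gene that fell less than the endothelial genes did. The part of other cell types in these ratios was not tested.

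**Figure D3:**
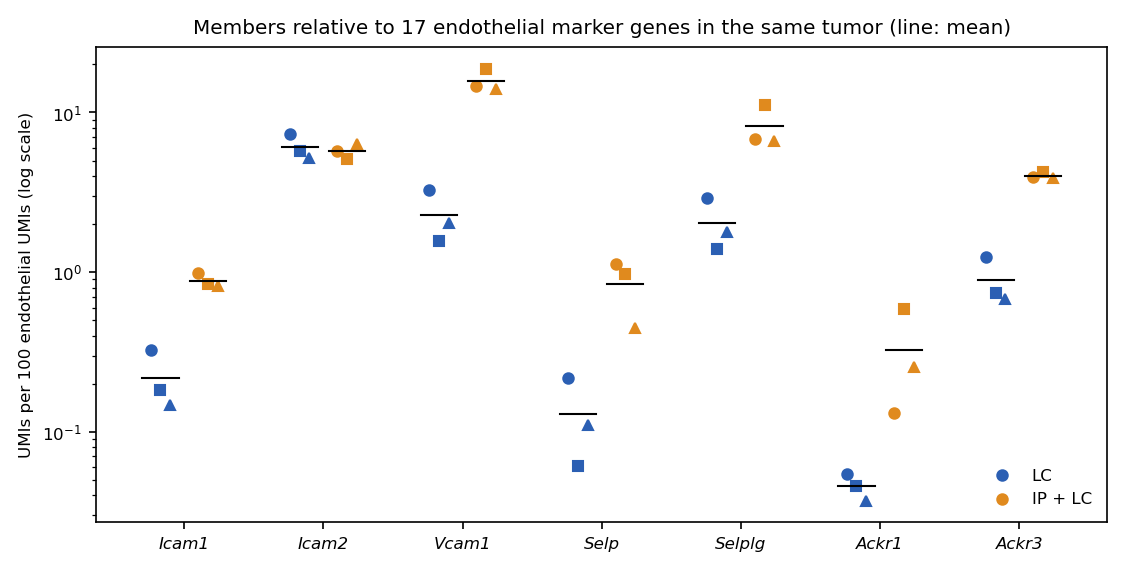
UMIs of each member per 100 summed UMIs of 17 endothelial marker genes (log axis) in each LC tumor (blue) and IP + LC tumor (orange), with the mean as a line; Sele is left out because it was at 0 in 2 tumors. Icam2 overlaps between the groups (5.13 to 7.37), while the other 6 genes lie higher in every IP + LC tumor, as did 88.7% of all genes tested.

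Markers of other cell types that could carry these mRNAs moved as well. Among 7 leukocyte-wide genes, Lcp1 and Laptm5 were higher and 5 did not pass the test, and their summed level was 1420 to 1750 CPM in the LC and 1716 to 2300.4 CPM in the IP + LC tumors. Both calls were lost without LC replicate 2 and without IP + LC replicates 2 and 3, and without LC replicate 1 5 of the 7 were higher. Per 100 UMIs of these genes, Selplg stood at 5.31, 5.08 and 5.21 in the LC tumors and at 4.35, 4.39 and 3.31 in the IP + LC tumors, lower without overlap (two-sided exact permutation p = 0.1), as were 31.4% of all genes tested, so that this is no result about Selplg. Vcam1 on the same scale stood at 5.91, 5.74 and 5.97 in the LC and 9.38, 7.44 and 6.98 in the IP + LC tumors, higher without overlap, as were 7.99% of all genes tested (39.4% were apart in either direction). Of 10 macrophage markers, 5 were higher and 1, Lyz2, was lower, and the summed level, of which Lyz2 was the largest part, was 13249 to 15772 CPM in the LC and 8108 to 9788 CPM in the IP + LC tumors. There were 8 higher without LC replicate 1, and without any other single tumor 2 were, since the calls of C1qa, C1qc and Adgre1 held only without LC replicate 1. Fcgr1, the high-affinity IgG receptor, rose from 23.4 to 117 CPM. Per 100 UMIs of the 9 macrophage markers without Lyz2, Vcam1 overlapped between the groups, at 4.39, 9.31 and 14.8 against 6.65, 5.53 and 5.85, with LC replicate 1 below and LC replicates 2 and 3 above all IP + LC tumors. Of 9 fibroblast markers, Col1a1 and Col1a2 were higher and 5, among them Dcn and Pdgfra, were lower, with sums of 1765 to 2240 CPM and 1786 to 1882 CPM. The number higher was 4 without LC replicate 1, and it was 1 without LC replicate 3 or IP + LC replicate 2. Per 100 fibroblast UMIs, Vcam1 stood at 5.85, 3.64 and 4.55 in the LC and at 8.56, 8.99 and 8.98 in the IP + LC tumors, without overlap, as did 24.1% of all genes tested in this direction, 17.6% in the other and 41.7% in either (two-sided exact permutation p = 0.1). Neutrophil markers were lower for 4 of 8 and B cell markers for 5 of 6 tested genes, and no tested gene of either list was higher. Without LC replicate 1, 5 neutrophil markers were lower and 1 was higher, 1 was also higher without IP + LC replicate 3, and 2 B cell markers were lower without LC replicate 2, IP + LC replicate 1 or IP + LC replicate 2. In the T and NK cell list 2 of 9 tested genes were lower, Cd2 and Klrb1c, and 0 to 2 were lower when single tumors were left out, with 1 higher without IP + LC replicate 1. The calls of Col1a2, Ms4a1, Cd22, Cd2 and Klrb1c were lost without IP + LC replicate 2 and without at least 1 other tumor. Of the platelet genes, which bear on Selp, only Pf4 and Ppbp could be tested, and Ppbp fell from 41.3 to 8.66 CPM, 1 of 2 being lower also without LC replicate 1. The platelet list summed to 135 to 222 CPM in the LC and 54.3 to 92.1 CPM in the IP + LC tumors. Selp had 3.10, 2.33 and 3.43 UMIs per 100 platelet UMIs in the LC tumors and 13.4, 16.1 and 8.33 in the IP + LC tumors, where this denominator was lower too. On this scale 67.7% of all genes tested were higher without overlap and 1.45% lower (69.1% in either direction), so the ratio is no result about Selp. Lung epithelium was lower for 10 of 12 alveolar and 7 of 7 airway genes (12 and 7 without LC replicate 1). No gene of these lists was at 0 in all tumors. Which of these cells carried the Vcam1 mRNA was not tested.

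The leukocyte side of adhesion was read from the integrins. Of 7 tested integrin counter-receptor genes, 2 were higher and none was lower, with a median log2 fold change of 0.53, and 5 were higher without LC replicate 1, but 1 without LC replicates 2 or 3 or IP + LC replicates 2 or 3. Itgam, which encodes the αM chain of Mac-1, a receptor of ICAM-1, rose from 36.4 to 83.2 CPM (log2 fold change 1.24, adjusted p = 0.0111 from edgeR). Itgb7, a partner of α4 in binding to MAdCAM-1 and VCAM-1, rose from 54.6 to 109 CPM (adjusted p = 0.0622 from edgeR), and it remained past the limit only without LC replicate 1 when single tumors were left out. The LFA-1 chains Itgal (0.53, adjusted p = 0.153) and Itgb2 (0.56, adjusted p = 0.1005) and the α4 chain Itga4 (0.33, adjusted p = 0.272) did not pass in edgeR's test. Itgb1, the partner of α4 in VLA-4, was at 409 and 429.9 CPM.
In the 12 genes that activate integrins or link adhesion receptors to actin, 4 were higher and 1 was lower (6 and 3 without LC replicate 1, and 2 and 1 without IP + LC replicate 2). The most abundant, Msn (moesin), Rap1b and Ezr (ezrin), did not pass the test. Actn1, an α-actinin, rose from 139 to 319.5 CPM and Apbb1ip, the talin recruiter RIAM, from 41.6 to 92.4 CPM. Fermt3 (kindlin-3) and Vcl (vinculin) were also higher. Rasgrp2, the exchange factor that activates Rap1 in platelets and leukocytes, fell from 42.2 to 12.3 CPM.

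Selectin ligands and the enzymes that build their sugars gave 2 higher and 6 lower of 15 tested genes, with a median log2 fold change of -0.28. Leaving out LC replicate 1 gave 4 higher and 6 lower. The higher calls came to 1 without LC replicate 2 or IP + LC replicate 3 and to 0 without LC replicate 3, IP + LC replicate 1 or IP + LC replicate 2, while 5 or 6 genes were lower in each of these fits. Higher were Cd44, which can carry E-selectin ligands, and Gcnt1, the core 2 branching enzyme that builds the selectin-binding sugars of PSGL-1, which rose from 17.4 to 33.5 CPM. B4galt1, a galactosyltransferase of the same sugars, was at 171 and 248 CPM (adjusted p = 0.411 from edgeR). Among those lower were the sialomucins Cd34 and Podxl, Cd24a, the sialyltransferase St3gal6 and the sulfotransferase Chst2. Cd24a fell from 289.7 to 83.5 CPM and St3gal6 from 86.5 to 27.8 CPM. Chst4, the sulfotransferase of high endothelial venules, was too low for the test, with 4, 4 and 7 UMIs in the LC and 0, 0 and 1 UMIs in the IP + LC tumors. The fucosyltransferase genes Fut4 and Fut7, needed for selectin ligands, did not exceed 7 UMIs in any tumor.

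Genes of endothelial junctions and transmigration were lower for 6 and higher for 1 of 12 tested genes, with a median log2 fold change of -0.84. There were 7 lower and 2 higher without LC replicate 1, and without IP + LC replicate 1 or 2, 4 were lower. Epha2, the higher gene, lost the call without LC replicates 2 or 3 or IP + LC replicate 2. Besides Pecam1 and Cdh5, which are also in the endothelium list, Esam fell from 159 to 53.0 CPM and Jam2 from 40.1 to 16.1 CPM. F11r (JAM-A) and Alcam were lower too, and Epha2 was higher. The groups overlapped for Alcam, and of the fits that left out a tumor only the one without LC replicate 1 kept its call. Cd47, the most abundant gene of the list, did not pass the test (376 and 435.5 CPM).
Around the atypical receptors, 3 of 5 tested genes were lower and none was higher, and 1 was lower without LC replicate 2. Without LC replicate 1, 4 of 6 were lower. Ackr4 enters the test there only through its counts in the LC tumors, so a call of it is no result. Ccrl2, a non-signaling receptor that presents chemerin, fell from 41.8 to 21.1 CPM and Adm, a ligand that Ackr3 can scavenge, from 20.7 to 10.4 CPM. Cxcr4, the signaling receptor of CXCL12, was at 12.1, 47.8 and 49.2 CPM in the LC tumors and at 17.4, 23.9 and 12.3 CPM in the IP + LC tumors. It passed the test as lower (adjusted p = 0.0885 from edgeR), but LC replicate 1 lay below every IP + LC tumor, and of the fits that left out a tumor only the one without LC replicate 1 kept the call. Cxcl12 itself, the ligand of Ackr3, was at 107 and 122 CPM (adjusted p = 0.672 from edgeR). Ackr4 was too low for the test with all tumors, with 3, 14 and 20 UMIs in the LC and 2, 2 and 1 UMIs in the IP + LC tumors.

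The list of cytokines, receptors and regulators of the pathways that induce ICAM-1, VCAM-1 and E-selectin, which also holds the inhibitors Tnfaip3 and Nfkbia, was higher for 7 of 14 tested genes and lower for none, with a median log2 fold change of 0.72. Without LC replicate 1, 12 were higher and 1 was lower of 16 tested, and without IP + LC replicate 2, 3 were higher. In the other fits that left out a tumor 6 or 7 were higher. These counts can include Ifng and Tnf, which pass the filter only through the IP + LC tumors, so calls of them are no result. Of the genes called with all tumors, Irf1 and Tnfaip3 kept the call in all 6 of these fits. Il1b and Tnfrsf1b kept it in 2 and Nfkb1 and Relb in 3. Irf1, a transcription factor of the interferon response, rose from 109.8 to 387 CPM (log2 fold change 1.84, adjusted p = 0.00511 from edgeR). Tnfaip3, an inhibitor of NF-kappaB that NF-kappaB itself induces, rose from 17.8 to 40.5 CPM, and Nfkb1, Relb, Tnfrsf1b and Il1b were also higher. Rela, Nfkbia and Tnfrsf1a did not pass the test. Ifng had 0, 0 and 0 UMIs in the LC and 8, 14 and 11 UMIs in the IP + LC tumors. Tnf had 0, 3 and 0 against 8, 13 and 12 UMIs, and both had too few for the test with all tumors. Among the inducible members, the same tumors showed higher Vcam1, no call for Icam1 and Sele at the detection level.
Over these 6 lists, 32 genes passed the limit, and 16 of them also did so in all 6 fits that left out a tumor. None was lost without LC replicate 1, 10 were lost without LC replicate 2, 10 without LC replicate 3, and 11, 15 and 6 without IP + LC replicates 1, 2 and 3. Among the genes lost in at least 1 of these fits were Itgb7, Fermt3, Vcl, Cd44, Gcnt1, Cd34, F11r, Alcam, Epha2, Adm, Cxcr4, Il1b, Tnfrsf1b, Nfkb1 and Relb. These lists were chosen with earlier results of the same tumors known, so their counts are a description.

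**Figure D4:**
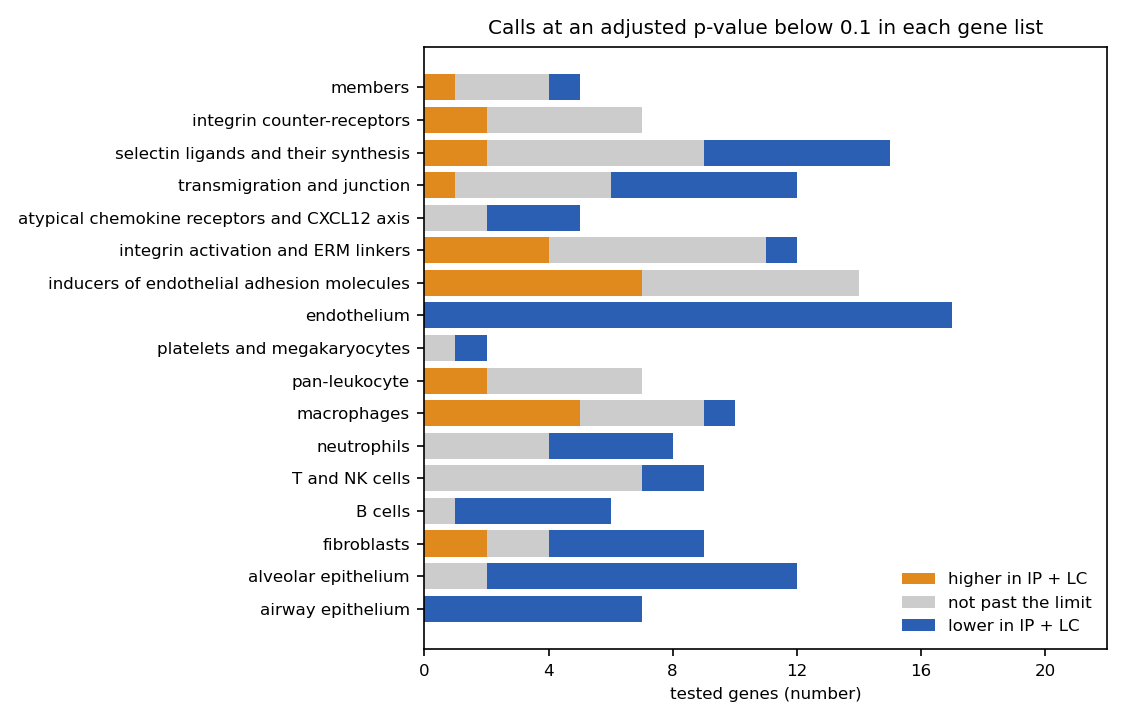
Number of tested genes (horizontal axis) in each list that were higher in IP + LC (orange), lower (blue) or not past an adjusted p-value of 0.1 (grey). All 17 endothelium genes and 7 airway genes are blue, and the 14 genes of the pathways that induce adhesion molecules hold 7 orange and 0 blue.

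The genes whose pattern over the 6 tumors was most like that of a member were found by Pearson's r on log2(CPM + 4). For Icam2 and Vcam1, whose groups lie apart, r mostly reflects the difference between the groups, whereas for Ackr3, Icam1 and Selplg the groups overlap. All r are given as a description. For Icam2 they were Map1lc3a, Pifo and Fendrr, with r from 0.99793 to 0.99992. For Vcam1 they were Adam17, Rnf213 and Cxcl10, with r from 0.997 to 0.998. Adam17 encodes a protease that cleaves VCAM-1 from the cell surface. With a pseudocount of 1, Cxcl10 was no longer among the 5 genes most like Vcam1, nor Pifo among those most like Icam2. Ackr3 was most like Exosc10, Rexo1 and Eif2b1 (0.984 to 0.986), Icam1 was most like Gatc, Zfp628 and Zfp61 (0.968 to 0.998), and Selplg was most like Itgb3bp, Tmem251 and Surf2 (0.914 to 0.933).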

How the data were processed

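RNA of 3 LC and 3 IP + LC tumors was sequenced by bulk RNA barcoding, with a UMI of 10 nucleotides in the oligo-dT primer. According to the methods and processing notes, the authors used UMI-tools 1.1.1, Trim Galore 0.6.7, HISAT2 2.2.1 on GRCm38 and featureCounts 2.0.1, and they deposited counts of different UMIs per gene without normalization, 1 table per tumor. The annotation release and the use of strand are not given in the sources used here. DESeq2 is also named in the notes. Similar UMIs were not merged, and a count carries at least its own sampling error, which is large for the members under 20 UMIs. LC replicate 1 had the fewest UMIs (592733).

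From the counts, genes were filtered by filterByExpr of edgeR 4.0.16 (minimum count 10, minimum total 15, 3 libraries), which left 11240 of 31130 genes, scaled by TMM and compared by edgeR's quasi-likelihood test in R 4.3.3, with Benjamini-Hochberg adjustment over all genes tested and the limit of 0.1 that the study used for DEGs. CPM are relative to the TMM-scaled UMIs of tested genes. Intervals of 95% come from the moderated spread of the fit. Members under the filter and ratios were compared by two-sided exact permutation tests (scipy 1.17.1). The labels number the tumors without saying that each came from its own mouse, and p-values then measure only the spread between these samples, which may be technical. Coordinates and overlaps are from GENCODE M21 on GRCm38, and similar transcripts were searched with blastn 2.17.0+. The steps were tested on simulated data. Alternatives were other scalings and filters, DESeq2 1.42.0, limma 3.58.1 voom with and without sample weights, a replicate block, a limit of 0.05 and each tumor left out.

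The members and lists were chosen with earlier results of these data known. From each list, the 3 most abundant genes and the 2 with the smallest p-values were to be named; for the cell type lists other than endothelium most are given as counts, and other genes named were chosen after their values were seen. The ratios to leukocyte, macrophage, fibroblast, platelet and Icam2 UMIs were added after seeing the data. Listed genes under the filter were not tested, and 4 (Itgad, Cd99, Icam4 and Gp1bb) were not analysed here. Some genes of the lists are counted but not reported here by name.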

Additional observations from a re-analysis of the deposited data

How the results depend on the processing

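Vcam1 and Icam2 kept their direction and their side of the limit in all 16 alternatives each. Their log2 fold changes ran from 0.74 to 0.98 for Vcam1 (adjusted p from 0.000125 to 0.0735) and from -2.22 to -1.89 for Icam2 (adjusted p from 1.66e-11 to 0.0132). Ackr3, Icam1 and Selplg passed the limit in none of the alternatives run for them, and Icam1 was not tested under the stricter filter of a mean of 20 UMIs. The sign of Selplg changed with upper quartile factors (-0.027) and with the stricter filter (-0.010), and leaving out single tumors moved it from -0.092 to 0.14 and Icam1 from -0.093 to 0.25. With library size alone, the median of all genes moved from 0.018 to 0.18 and the share of higher calls from 46.1% to 58.3%, and Vcam1 was at 0.98. One member was higher in all settings except without LC replicate 1, where Selp made it 2 (range 1 to 2). Selp entered that fit only through its counts in the IP + LC tumors, so this is no result.

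Over all genes, the main test called 1885 higher and 2203 lower. Leaving out single tumors gave 897 to 3324 higher and 1368 to 3367 lower, with the fewest without IP + LC replicate 2 and the most without LC replicate 1, and sample weights in voom gave 3180 higher. The cause was not tested. Replicate numbers are shared by the groups without a stated pairing, and deviations of same-numbered tumors correlated at 0.026, -0.12 and 0.11. With the replicate block, 1599 genes were higher and 1811 lower, Vcam1 was at 0.83 and Icam2 at -2.09, and it changed no call of a member. Members under about 10 UMIs are limited by depth.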
